A study of Mus musculus with 6 samples.

Results

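The 76 genes described here are 74 nuclear genes for subunits of the oxidative phosphorylation system and 2 genes, Atp5s and Atp5sl, that carry an ATP synthase symbol without encoding an established subunit of it. They were taken by symbol from a table of 23337 genes: symbols starting with Nduf and a subunit letter, the 4 Sdh genes, and symbols starting with Uqcr, with Cox4 to Cox8 and a subunit letter, or with Atp5. Of 82 symbols that matched, 76 had a summed count of at least 60 over the 6 libraries. They comprised 35 genes read under complex I, 4 under complex II, 8 under complex III, 12 under complex IV and 17 under complex V. Just inside the minimum were Cox6a2 with 98 counts and Cox7a1 with 159. Just outside were Cox6b2 with 43 and Cox8b with 32, followed by Ndufa4l2 with 2, while Cox7b2, Cox8c and Ndufs5 were listed at 0 in every library. Ndufs5 is a complex I gene that most cells use, so only its listing at 0 is given. All 76 members passed edgeR's filter on low counts.

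The cells were bone marrow-derived macrophages on a C57BL/6 background, grown from mouse marrow with 10% M-CSF for 7 days and then exposed for 8 h to LPS, a bacterial cell wall component, at 100 ng/ml. There were 2 libraries of wild-type cells (WT), 2 of cells lacking Ch25h, the enzyme that makes 25-hydroxycholesterol (Ch25hKO), and 2 of cells lacking both liver X receptors, the nuclear receptors LXRα and LXRβ that bind such oxysterols (LXRdKO). All 3 genotypes received LPS, so no value refers to unstimulated cells. No source used here gives the deleted part of each gene or the age of the mice. Whether the paired libraries of a genotype stem from different mice or cultures is not in the labels, and the p-values therefore reflect the spread among these 6 libraries alone, which may be technical.

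Oxidative phosphorylation takes place in the inner mitochondrial membrane. Complex I takes electrons from NADH and complex II from succinate, complex III passes them to cytochrome c, and complex IV passes them to oxygen. Complexes I, III and IV pump protons as they do so, and complex V, the ATP synthase, uses the proton gradient to make ATP. Most subunits are encoded in the nucleus and imported, and the remaining core subunits are encoded by mitochondrial DNA. Of 26 symbols for mitochondrial genes that were looked up, 0 were among the genes counted, so these could not be analysed here. In macrophages, LPS is known to shift energy metabolism towards glycolysis and to raise succinate and itaconate, and complex II links that shift to the respiratory chain.

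Total counts ran from 41650513 to 45872964 per library. Ch25h stood at 1.61% of its WT mean in Ch25hKO, and Nr1h3 (LXRα) and Nr1h2 (LXRβ) stood at 5.65% and 2.59% of theirs in LXRdKO, so each knockout library was low in the genes its label names. Macrophage markers summed to 17159 to 18621 CPM in WT, 17205 to 17855 in Ch25hKO and 20478 to 20651 in LXRdKO. Most of this sum was Lyz2, at 11829 and 10455 CPM for WT, 10347 and 10820 for Ch25hKO, and 12938 and 12782 for LXRdKO. Of 9 tested, 7 were called higher in LXRdKO with a median log2 fold change of 0.22. Of these, Cd68, Csf1r, Mertk and Mrc1 kept the call without each library in turn, and Lyz2 did not. In Ch25hKO 2 of the 9 were called higher and 2 lower. Stromal markers summed to 11.9 to 12.4 CPM in WT, 27.3 to 30.3 in Ch25hKO and 13.9 to 15.5 in LXRdKO, and 5 of 5 were called higher in Ch25hKO and 2 of 5 in LXRdKO. Col3a1 lost its call in Ch25hKO without Ch25hKO replicate 1 (0.67) or WT replicate 2 (0.94). In LXRdKO Pdgfrb kept its call without each library in turn, and Col1a1 lost it without LXRdKO replicate 1 (0.59) or WT replicate 2 (0.74). Over all genes tested, 19.8% were called higher and 19.5% lower in Ch25hKO, and 16.4% and 15.5% in LXRdKO. Neutrophil markers summed to 39.5 to 40.2, 52.2 to 55.1 and 19.3 to 19.8 CPM in the same order, dendritic cell markers to 27.3 to 28.2, 12.8 to 13.8 and 21.6 to 23.4 CPM, B cell markers to at most 1.08 CPM, T and NK cell markers to at most 2.99 CPM, and the erythroid genes Hba-a1 and Hbb-b1 were at 0 throughout. Most of the neutrophil sum was S100a8, at 35.9 and 35.1 CPM for WT, 48.1 and 50.4 for Ch25hKO, and 16.4 and 16.6 for LXRdKO. Mpo and Ngp were lower in both Ch25hKO libraries than in WT, Camp was higher and S100a9 overlapped. Of 5 neutrophil markers tested, Ch25hKO had 1 called higher and 0 lower, and LXRdKO 0 and 4. Of 6 dendritic cell markers, 0 were called higher in either knockout, with 3 called lower for Ch25hKO and 1 for LXRdKO. The ribosomal RNA precursor Rn45s took 1.26% to 1.30% of counts in WT and Ch25hKO and 1.01% to 1.06% in LXRdKO, and the nuclear RNA Malat1 took between 1.10% in WT replicate 1 and 1.79% in Ch25hKO replicate 1. The part of these differences in the results below was not tested. In bulk RNA, fewer cells of a type and less RNA per cell cannot be told apart.

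Promoters of respiratory genes are known for a small set of recurring motifs, and 5 of them, chosen after their values were seen, are printed because their genes moved in both knockouts while carrying the same or different motifs. The sequences are from RefSeq on GRCm38.p6, each 5′ to 3′ on the strand of the gene, from 250 bases before to 50 after the start of the gene. They are the promoters of Ndufs6 (chr13:73328433-73328732, minus strand), Ndufs7 (chr10:80249199-80249498, plus strand), Ndufa9 (chr6:126849095-126849394, minus strand), Atp5k (chr5:108434350-108434649, minus strand) and Cox8a (chr19:7217567-7217866, minus strand). Capitals mark a YY1-type motif (AAGATGGCG) in the Nduf promoters, overlapping matches of an NRF1-type motif (GCGCATGC) on both strands in Atp5k, and ETS-type matches (CCGGAAGT) on the reverse strand in Cox8a.
Ndufs6: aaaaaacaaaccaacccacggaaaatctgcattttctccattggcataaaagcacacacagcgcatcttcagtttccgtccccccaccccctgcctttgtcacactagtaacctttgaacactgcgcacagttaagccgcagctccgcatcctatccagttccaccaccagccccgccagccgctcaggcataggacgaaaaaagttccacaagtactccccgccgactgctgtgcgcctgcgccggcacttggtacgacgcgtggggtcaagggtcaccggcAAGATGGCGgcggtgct
Ndufs7: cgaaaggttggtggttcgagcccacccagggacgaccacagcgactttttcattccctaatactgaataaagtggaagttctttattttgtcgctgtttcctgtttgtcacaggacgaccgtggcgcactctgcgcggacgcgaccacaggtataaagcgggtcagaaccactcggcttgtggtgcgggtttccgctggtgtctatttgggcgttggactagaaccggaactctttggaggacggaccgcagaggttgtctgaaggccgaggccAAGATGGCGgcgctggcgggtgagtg
Ndufa9: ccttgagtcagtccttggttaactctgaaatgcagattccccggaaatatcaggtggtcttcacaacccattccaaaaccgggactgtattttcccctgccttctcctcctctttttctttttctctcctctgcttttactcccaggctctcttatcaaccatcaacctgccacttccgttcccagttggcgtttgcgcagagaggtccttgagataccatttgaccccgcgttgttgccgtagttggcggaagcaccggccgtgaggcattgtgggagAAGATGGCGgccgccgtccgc
Atp5k: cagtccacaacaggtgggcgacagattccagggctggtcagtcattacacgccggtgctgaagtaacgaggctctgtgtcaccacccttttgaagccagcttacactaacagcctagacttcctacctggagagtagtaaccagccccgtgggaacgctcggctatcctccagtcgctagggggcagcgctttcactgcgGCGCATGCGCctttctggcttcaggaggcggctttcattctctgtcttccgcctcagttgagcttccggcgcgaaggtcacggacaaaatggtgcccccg
Cox8a: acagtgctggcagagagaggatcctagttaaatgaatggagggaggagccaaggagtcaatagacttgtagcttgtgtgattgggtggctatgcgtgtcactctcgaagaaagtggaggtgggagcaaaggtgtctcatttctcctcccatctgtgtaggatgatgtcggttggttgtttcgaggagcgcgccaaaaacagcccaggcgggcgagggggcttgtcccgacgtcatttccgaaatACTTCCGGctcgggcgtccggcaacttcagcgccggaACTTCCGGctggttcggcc
The YY1-type motif begins 33 bases after the start in Ndufs6, 24 in Ndufs7 and 29 in Ndufa9. Ndufs6 and Ndufs7 were called higher in both knockouts and Ndufa9 lower in both, and the calls of Ndufs7 and Ndufa9 were lost without some libraries, as given below. Of all 7 members with the YY1-type motif, 3 were called higher and 1 lower in Ch25hKO, and 4 and 1 in LXRdKO. Of the 55 without it, the counts were 17 and 1, and 24 and 3. Any part of the motif in the direction of change was not tested.

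Counting both strands, exact matches were more frequent in the 67 promoters that the table holds for 62 of the members than in all 32851 promoters of the same length. The NRF1-type motif was in 14.9% of member promoters and 2.71% of all, the YY1-type motif in 10.4% and 1.40%, the ETS-type motif in 7.46% and 3.89%, and the CRE-type motif (TGACGTCA) in 5.97% and 1.79%. NRF1-type matches on the 2 strands overlap in 5 of the 10 promoters that hold one, since the motif and its reverse complement share letters. Of the 24 members with any of the 4 motifs, 7 were called higher and 1 lower in Ch25hKO, with a median log2 fold change of 0.08, against 13 higher and 1 lower of the 38 without, with a median of 0.13. In LXRdKO the counts were 10 higher and 1 lower with a motif (median 0.15) and 18 higher and 3 lower without (median 0.18). These matches describe letters in a window and were not tested as sites.

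Levels differed widely among members. Per kilobase of transcript, the highest WT means were those of Atp5b at 382 CPM per kb and Atp5a1 at 139 CPM per kb, which encode the catalytic β and the α subunit of the ATP synthase head. Cox7c followed at 118 CPM per kb and Atp5g3 at 114 CPM per kb. The lowest were Cox6a2 at 0.403 CPM per kb, Atp5s at 0.623 and Cox7a1 at 0.900, of which Cox6a2 and Cox7a1 are the isoforms known from heart and skeletal muscle. By complex, the median level in WT was 70.7 CPM per kb for complex IV, 53.7 for complex V, 40.3 for complex II, 25 for complex III and 20.7 for complex I. The same order of complexes held for the medians in Ch25hKO and in LXRdKO.

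Against WT, more members were higher than lower in both knockouts, and the changes were small. In Ch25hKO, 23 of 76 members were called higher, 3 lower and 50 did not pass the test. Over all 12923 genes tested, 19.8% were called higher and 19.5% lower, and among the genes with a mean of at least 5 CPM, a background taken after values were seen, 25.2% and 23%. The share of members called higher, 30.3%, was above that of all genes and near that of genes with at least 5 CPM, and the share called lower, 3.95%, was below both. In LXRdKO, 29 members (38.2%) were called higher, 5 (6.58%) lower and 42 did not pass, where 16.4% and 15.5% of all genes tested, and 23% and 16.7% of those with at least 5 CPM, were called. The median log2 fold change of members was 0.10 in Ch25hKO and 0.15 in LXRdKO, and that of all genes tested was 0.01 and 0.00. Each knockout was set against the same pair of WT libraries. Here and below, log2 fold changes are given ± standard error with 2 libraries per group. A call means an adjusted p under 0.05 in the quasi-likelihood test of edgeR, adjusted by Benjamini and Hochberg's method across the 12923 genes.

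In Ch25hKO, both libraries of 46 members lay above both WT libraries and those of 8 lay below, or 60.5% and 10.5% of members, where 35.6% and 32.7% of all genes tested did. In LXRdKO the counts were 48 above and 12 below, or 63.2% and 15.8%, with 32.9% and 30.6% of all genes tested.

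The calls rested on few libraries. Of the 23 members called higher in Ch25hKO, 4 kept the call without each library in turn (Ndufs6, Ndufv3, Cox5a and Atp5g1), and 10 and 7 were called higher without Ch25hKO replicate 1 and 2. Of the 29 called higher in LXRdKO, 6 kept it (Ndufb8, Ndufs6, Ndufv3, Uqcr10, Cox7a2 and Cox8a), with 6 called without LXRdKO replicate 1, 15 without LXRdKO replicate 2 and 17 without Ch25hKO replicate 1, a library of neither group compared that adds to the shared estimate of spread. The calls lower depended on WT replicate 1: without it 0 members were called lower in Ch25hKO and 2 in LXRdKO, and without WT replicate 2 the counts were 5 and 10. Without Ch25hKO replicate 1 and 2, 0 and 1 were called lower in Ch25hKO, and without LXRdKO replicate 1 and 2, 2 and 1 in LXRdKO. The median stayed above 0 in each of these fits, between 0.07 and 0.13 in Ch25hKO and between 0.11 and 0.17 in LXRdKO. Without Ch25hKO replicate 2, a smaller share of members than of all genes was called higher in Ch25hKO. The same held in LXRdKO without LXRdKO replicate 1, so the excess of members called higher was not kept in every fit. DESeq2's Wald test called 8 members higher and 2 lower in Ch25hKO, and 15 higher and 4 lower in LXRdKO. Over all genes it called 1747 higher and 2023 lower in Ch25hKO, and 1506 and 1371 in LXRdKO.

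**Figure D1:**
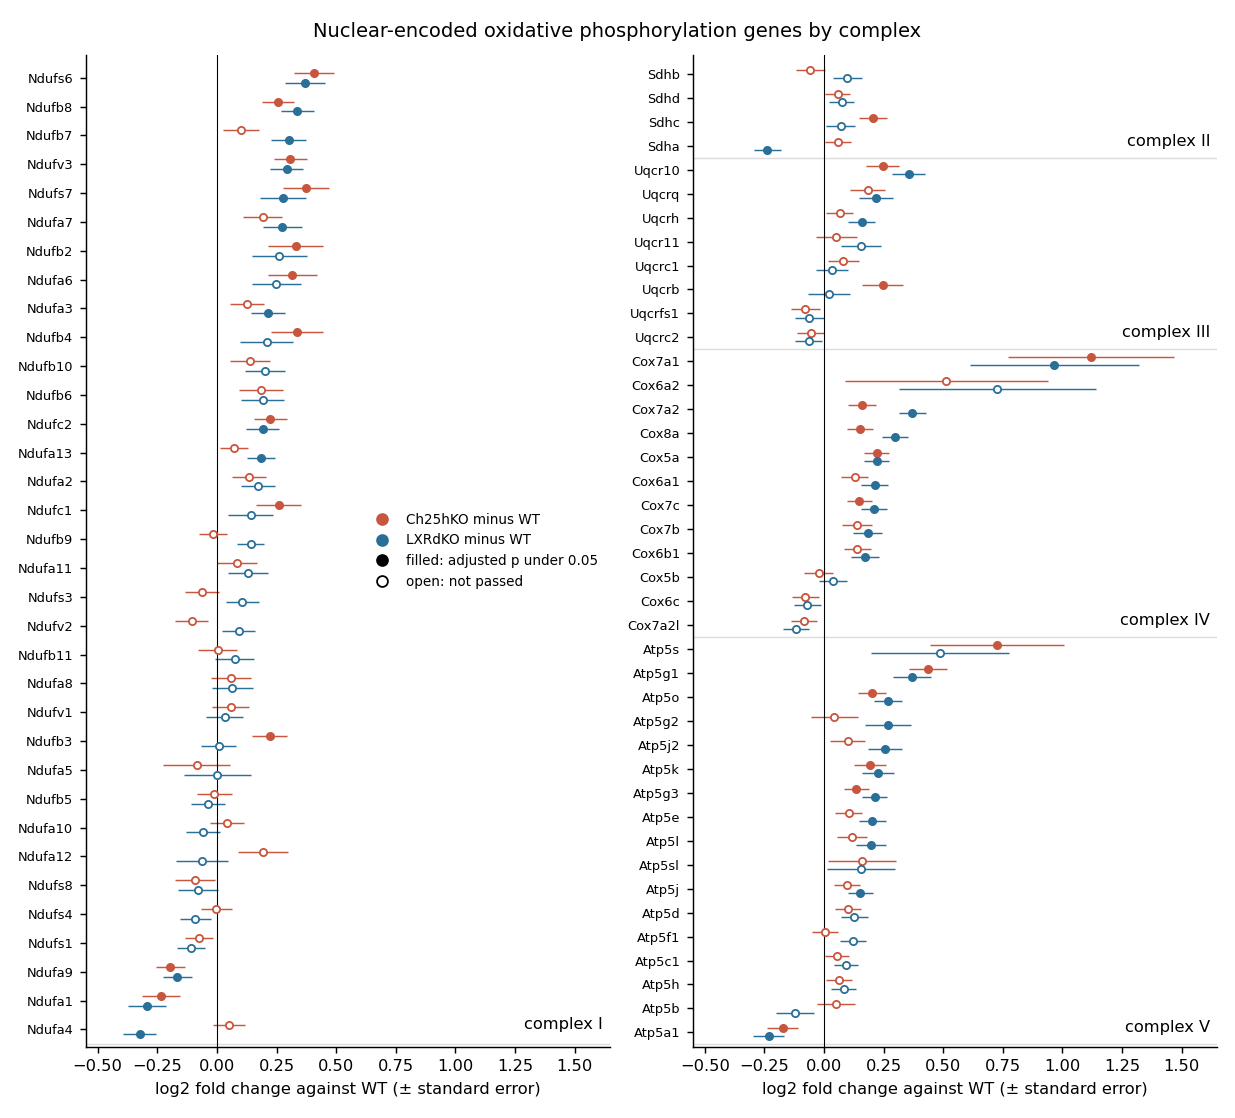
Log2 fold change against WT (x axis, ± standard error) of 75 of the 76 members in Ch25hKO (red) and LXRdKO (blue), grouped by complex, with filled points for an adjusted p under 0.05. Most points lie to the right of 0, with medians of 0.10 and 0.15, and Ndufa4 and Sdha are the members called lower in LXRdKO but not in Ch25hKO.

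Complex I had 10 members called higher and 2 lower in Ch25hKO, and 9 higher and 3 lower in LXRdKO, of 35. That was 28.6% and 5.71% of them in Ch25hKO, and 25.7% and 8.57% in LXRdKO. Among genes with a mean of at least 5 CPM the shares were 25.2% and 23%, and 23% and 16.7%. The shares called higher were thus near those of such genes, and the shares called lower were below them. Ndufs6 (ENSMUSG00000021606.8, chromosome 13, 73319838 to 73328542; GRCm38 here and below), a zinc-binding subunit of the peripheral arm, stood at 12.1 and 11.4 CPM for WT, 14.6 and 16.5 for Ch25hKO, and 15.3 and 15.0 for LXRdKO. Its knockout libraries were all above WT. The gene rose by 0.41 ± 0.08 (edgeR adjusted p = 0.000873) in Ch25hKO and by 0.37 ± 0.08 (edgeR adjusted p = 0.00251) in LXRdKO, and both calls held in the 16 alternative fits. Ndufv3 (ENSMUSG00000024038.17, chromosome 17, 31520115 to 31531331), an accessory subunit of the NADH-binding module, stood at 16.7 and 17.3 CPM for WT, 20.7 and 21.4 for Ch25hKO, and 21.3 and 20.4 for LXRdKO. It rose by 0.31 ± 0.07 (edgeR adjusted p = 0.00177) and 0.29 ± 0.07 (edgeR adjusted p = 0.00329), again in all 16. Ndufb8 (ENSMUSG00000025204.10, chromosome 19, 44548572 to 44555440), an accessory subunit of the membrane arm, was at 18.4 and 19.2 CPM for WT, 22.4 and 22.5 for Ch25hKO, and 24.7 and 22.9 for LXRdKO. It rose by 0.34 ± 0.07 (edgeR adjusted p = 0.000953) in LXRdKO, which held in the 16 fits, and by 0.26 ± 0.07 (edgeR adjusted p = 0.00622) in Ch25hKO, a call lost without Ch25hKO replicate 1 (0.25).

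Ndufs7 (ENSMUSG00000020153.14, chromosome 10, 80249121 to 80256794), a core subunit that holds the last iron-sulfur cluster before ubiquinone, stood at 9.70 and 8.08 CPM for WT, 11.8 and 11.2 for Ch25hKO, and 10.8 and 10.7 for LXRdKO. All 4 knockout libraries lay above both WT libraries, which differed from each other. It rose by 0.37 ± 0.10 (edgeR adjusted p = 0.005) in Ch25hKO and by 0.28 ± 0.10 (edgeR adjusted p = 0.0363) in LXRdKO. The first call was lost without Ch25hKO replicate 1 (0.33) or WT replicate 2 (0.23). The second was lost without Ch25hKO replicate 1 (0.27), Ch25hKO replicate 2 (0.28), LXRdKO replicate 1 (0.27), LXRdKO replicate 2 (0.28) or WT replicate 2 (0.14). Ndufc2, an accessory subunit of the membrane arm, rose by 0.22 ± 0.07 (edgeR adjusted p = 0.0149) and 0.19 ± 0.07 (edgeR adjusted p = 0.0415). Its call was lost without Ch25hKO replicate 2 (0.17) in Ch25hKO and without each of the 6 libraries in turn (0.14 to 0.24) in LXRdKO. The accessory subunit genes Ndufa6, Ndufb2, Ndufb3, Ndufb4 and Ndufc1 were called higher in Ch25hKO, by 0.22 to 0.34, and did not pass in LXRdKO, where their values were 0.01 to 0.26. Ndufa3, Ndufa7 and Ndufa13 were called higher in LXRdKO, by 0.18 to 0.27, with values of 0.07 to 0.19 in Ch25hKO that did not pass. Each call of these 8 genes was lost without at least 1 library, where the values ran over 0.19 to 0.38 and 0.16 to 0.26. In Ndufa13, 30.0% of exonic bases overlap Tssk6 on the other strand, and since no strand setting is given its value is uncertain.

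Unlike the core subunit Ndufs7, given above, the core subunits Ndufs1 and Ndufv1 of complex I did not pass the test. Ndufs1, the largest iron-sulfur subunit, stood at 41.0 and 38.5 CPM for WT, 38.7 and 36.7 for Ch25hKO, and 37.1 and 36.6 for LXRdKO, with values of -0.08 ± 0.06 (edgeR adjusted p = 0.329) in Ch25hKO and -0.11 ± 0.06 (edgeR adjusted p = 0.169) in LXRdKO. Ndufv1, which binds NADH and the flavin, stood at 17.6 and 16.3 CPM for WT, 18.5 and 16.8 for Ch25hKO, and 17.1 and 17.6 for LXRdKO, at 0.06 ± 0.08 and 0.03 ± 0.08 (edgeR adjusted p = 0.585 and 0.791). Neither passed, and the libraries of WT and Ch25hKO overlapped in both genes. Both LXRdKO libraries of Ndufs1 lay below both of its WT libraries.

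Ndufa1 and Ndufa9 were called lower in both knockouts. Ndufa1 (ENSMUSG00000016427.7, chromosome X, 37187588 to 37191163), a small membrane subunit needed for assembly, stood at 28.4 and 24.1 CPM for WT, 21.1 and 23.5 for Ch25hKO, and 21.3 and 21.5 for LXRdKO. It fell by 0.23 ± 0.08 (edgeR adjusted p = 0.0247) in Ch25hKO and by 0.29 ± 0.08 (edgeR adjusted p = 0.00828) in LXRdKO. WT replicate 1 was the highest of the 6 libraries. The calls were lost without Ch25hKO replicate 1 (-0.17) or WT replicate 1 (-0.11) in Ch25hKO, and without LXRdKO replicate 1 (-0.29), LXRdKO replicate 2 (-0.30) or WT replicate 1 (-0.17) in LXRdKO. Ndufa9 (ENSMUSG00000000399.10, chromosome 6, 126821721 to 126849136), which joins the peripheral arm to the membrane arm, stood at 61.4 and 54.5 CPM for WT, 50.7 and 50.5 for Ch25hKO, and 50.4 and 53.0 for LXRdKO. It fell by 0.20 ± 0.06 (edgeR adjusted p = 0.0172) and 0.17 ± 0.06 (edgeR adjusted p = 0.0457). These calls were lost without Ch25hKO replicate 1 (-0.21), Ch25hKO replicate 2 (-0.19) or WT replicate 1 (-0.11) in Ch25hKO, and without Ch25hKO replicate 1 (-0.18), Ch25hKO replicate 2 (-0.17), LXRdKO replicate 1 (-0.13), LXRdKO replicate 2 (-0.20) or WT replicate 1 (-0.08) in LXRdKO.

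Ndufa4 (ENSMUSG00000029632.7, chromosome 6, 11900292 to 11907497), whose symbol places it under complex I although its protein is now known as a complex IV subunit, was low in LXRdKO and not in Ch25hKO. It stood at 25.7 and 25 CPM for WT, 26.1 and 26.4 for Ch25hKO, and 21.4 and 19.2 for LXRdKO. Both LXRdKO libraries lay below the other 4, which spanned a narrow range. The gene fell by 0.32 ± 0.07 (edgeR adjusted p = 0.00149) against WT and by 0.37 ± 0.07 (edgeR adjusted p = 0.000281) against Ch25hKO, and both calls held in all 16 alternative fits. In Ch25hKO its value was 0.05 ± 0.07 (edgeR adjusted p = 0.593). Its paralog Ndufa4l2, known as a hypoxia-induced gene, had 2 counts over all 6 libraries.

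Complex II, the smallest complex and the one shared with the tricarboxylic acid cycle, had 1 of 4 members called higher in Ch25hKO and 1 called lower in LXRdKO. Among genes with a mean of at least 5 CPM, 25.2% were called higher in Ch25hKO and 16.7% lower in LXRdKO. Sdha (ENSMUSG00000021577.14, chromosome 13, 74322254 to 74350280), the flavoprotein that oxidises succinate, stood at 138 and 125 CPM for WT, 137 and 137 for Ch25hKO, and 113 and 109.9 for LXRdKO. The LXRdKO libraries were the lowest of the 6. Sdha fell by 0.24 ± 0.06 (edgeR adjusted p = 0.00302) against WT, a call lost without LXRdKO replicate 2 (-0.21), and by 0.30 ± 0.06 (edgeR adjusted p = 0.00033) against Ch25hKO, which held in all 16 fits. Against WT its value in Ch25hKO was 0.06 ± 0.05 (edgeR adjusted p = 0.436). Sdhb, the iron-sulfur subunit that takes electrons from Sdha, stood at 42.1 and 38.3 CPM for WT, 38.3 and 39.0 for Ch25hKO, and 42.1 and 44.0 for LXRdKO, and did not pass in Ch25hKO (-0.06 ± 0.06, edgeR adjusted p = 0.483) or in LXRdKO (0.10 ± 0.06, edgeR adjusted p = 0.233). Sdhc, a membrane anchor, was at 57.0 and 51.5 CPM for WT, 61.1 and 64.1 for Ch25hKO, and 57.8 and 56.1 for LXRdKO. It rose by 0.21 ± 0.06 (edgeR adjusted p = 0.00979) in Ch25hKO, a call lost without Ch25hKO replicate 2 (0.17) or WT replicate 2 (0.12). Sdhd, the other anchor, was at 0.06 ± 0.05 and 0.07 ± 0.05 and passed in neither.

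Complex III had 2 of 8 members called higher in Ch25hKO and 3 in LXRdKO, and 0 lower in either. That was 25% and 37.5% called higher. Among genes with a mean of at least 5 CPM, 25.2% were called higher and 23% lower in Ch25hKO, and 23% and 16.7% in LXRdKO. At an unadjusted p under 0.05 edgeR gave 3 higher and 0 lower in each. At an adjusted p under 0.05 DESeq2 gave 1 and 0 in each, and limma-voom 2 and 0 in Ch25hKO and 3 and 0 in LXRdKO. Uqcr10 (ENSMUSG00000059534.8, chromosome 11, 4701973 to 4704342), a small subunit beside cytochrome c1, stood at 20.7 and 22.1 CPM for WT, 24.6 and 26.1 for Ch25hKO, and 26.2 and 28.6 for LXRdKO. The knockout libraries lay above WT without overlap. It rose by 0.25 ± 0.07 (edgeR adjusted p = 0.00928) in Ch25hKO, a call lost without Ch25hKO replicate 2 (0.20), and by 0.36 ± 0.07 (edgeR adjusted p = 0.000683) in LXRdKO, which held in all 16 fits. Uqcrb, a ubiquinone-binding subunit, was at 10.0 and 10.8 CPM for WT, 12.0 and 12.7 for Ch25hKO, and 10.8 and 10.2 for LXRdKO. It rose by 0.25 ± 0.09 (edgeR adjusted p = 0.0305) in Ch25hKO, a call lost without Ch25hKO replicate 1 (0.28), Ch25hKO replicate 2 (0.21) or WT replicate 1 (0.20), and its LXRdKO libraries overlapped WT (0.02 ± 0.09 (edgeR adjusted p = 0.893)). Uqcrh and Uqcrq, both small subunits, were called higher in LXRdKO at 0.16 ± 0.06 and 0.22 ± 0.07. Those calls were lost without Ch25hKO replicate 1 (0.15), Ch25hKO replicate 2 (0.16), LXRdKO replicate 1 (0.16), LXRdKO replicate 2 (0.15) or WT replicate 2 (0.08) for Uqcrh, and without Ch25hKO replicate 1 (0.21), LXRdKO replicate 1 (0.17), LXRdKO replicate 2 (0.26) or WT replicate 1 (0.20) for Uqcrq.

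The core and iron-sulfur subunits of complex III passed in neither knockout. Uqcrc1, one of the large matrix-facing core proteins, stood at 24.9 and 23.8 CPM for WT, 25.5 and 26.0 for Ch25hKO, and 24.0 and 25.8 for LXRdKO, with log2 fold changes of 0.08 ± 0.07 (edgeR adjusted p = 0.349) and 0.03 ± 0.07 (edgeR adjusted p = 0.738). Uqcrfs1, the Rieske iron-sulfur protein, was at 30.5 and 31.0 CPM for WT, 28.5 and 29.8 for Ch25hKO, and 28.6 and 30.3 for LXRdKO, with values of -0.08 ± 0.06 (edgeR adjusted p = 0.335) and -0.06 ± 0.06 (edgeR adjusted p = 0.481). In Ch25hKO, both libraries of Uqcrc1 were above WT and both of Uqcrfs1 below it, by differences that missed the threshold.

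Complex IV, cytochrome c oxidase, held the largest share of members called higher among the 5 complexes: 5 of 12 members were called higher in Ch25hKO and 8 in LXRdKO, with medians of 0.14 and 0.21, and 0 were lower. That was 41.7% and 66.7% called higher. Among genes with a mean of at least 5 CPM, 25.2% were called higher and 23% lower in Ch25hKO, and 23% and 16.7% in LXRdKO. The count for complex IV follows the symbols. It leaves out Ndufa4, given above under complex I, which was called lower in LXRdKO. It also leaves out Cox4i1, the main subunit IV, which the symbol rule misses and which passed in neither knockout. At an unadjusted p under 0.05 edgeR gave 8 higher and 0 lower in Ch25hKO and 8 and 1 in LXRdKO. At an adjusted p under 0.05 DESeq2 gave 1 and 0, and 5 and 0, and limma-voom 5 and 0, and 8 and 0. Cox7a2 (ENSMUSG00000032330.7, chromosome 9, 79755361 to 79759878), the form of subunit VIIa found in most tissues, stood at 42.3 and 44.5 CPM for WT, 46.4 and 50.5 for Ch25hKO, and 56.5 and 55.8 for LXRdKO. Its libraries did not overlap between any 2 genotypes, with WT lowest and LXRdKO highest. It rose by 0.37 ± 0.06 (edgeR adjusted p = 9.14e-05) in LXRdKO, which held in all 16 fits, and by 0.16 ± 0.06 (edgeR adjusted p = 0.0405) in Ch25hKO, which was lost without Ch25hKO replicate 1 (0.21), Ch25hKO replicate 2 (0.10), LXRdKO replicate 1 (0.16), LXRdKO replicate 2 (0.16) or WT replicate 1 (0.12). Cox8a (ENSMUSG00000035885.5, chromosome 19, 7215153 to 7217616), the ubiquitous subunit VIII, stood at 37.9 and 38.6 CPM for WT, 43.0 and 41.9 for Ch25hKO, and 47.4 and 46.6 for LXRdKO. It rose by 0.30 ± 0.05 (edgeR adjusted p = 0.000434) in LXRdKO in all 16 fits, and by 0.15 ± 0.06 (edgeR adjusted p = 0.0374) in Ch25hKO, which was lost without each of the 6 libraries in turn (0.12 to 0.17).

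Cox5a (ENSMUSG00000000088.7, chromosome 9, 57521274 to 57532426), a matrix-side subunit, stood at 53.1 and 52.3 CPM for WT, 60.4 and 62.5 for Ch25hKO, and 62.4 and 60.5 for LXRdKO. Its knockout libraries were all above WT and close to each other. It rose by 0.22 ± 0.05 (edgeR adjusted p = 0.00303) in Ch25hKO in all 16 fits, and by 0.22 ± 0.05 (edgeR adjusted p = 0.00393) in LXRdKO, which was lost without LXRdKO replicate 1 (0.20). Of its exonic bases, 12.8% overlap Gm26631 on the other strand. Cox5b, which binds zinc on the same side, stood at 44.9 and 40.2 CPM for WT, 41.7 and 42.0 for Ch25hKO, and 43.6 and 43.7 for LXRdKO, with values of -0.02 ± 0.06 (edgeR adjusted p = 0.794) and 0.04 ± 0.06 (edgeR adjusted p = 0.683). WT replicate 1 was its highest library and WT replicate 2 its lowest. Cox7c, a small membrane subunit, rose by 0.15 ± 0.05 (edgeR adjusted p = 0.0365) and 0.21 ± 0.05 (edgeR adjusted p = 0.00607). It lost the calls without Ch25hKO replicate 1 (0.09), LXRdKO replicate 1 (0.15), LXRdKO replicate 2 (0.15) or WT replicate 2 (0.11) in Ch25hKO, and without LXRdKO replicate 1 (0.21) or LXRdKO replicate 2 (0.21) in LXRdKO. Cox6a1, Cox6b1 and Cox7b were called higher in LXRdKO, by 0.17 to 0.21, with values of 0.13 to 0.14 in Ch25hKO that did not pass. Each of these 3 calls was lost without at least 1 library, where values ran over 0.11 to 0.22.

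Complex IV has tissue-specific isoforms, and the forms known from most tissues were far above the others. Cox6a1 stood at 53.3 and 58.0 CPM for WT, 59.7 and 61.9 for Ch25hKO, and 64.3 and 64.7 for LXRdKO, and Cox6a2, the striated muscle form, at 0.225 and 0.322 CPM for WT, 0.461 and 0.321 for Ch25hKO, and 0.456 and 0.452 for LXRdKO. Cox6a2 did not pass in either knockout (0.51 ± 0.43 and 0.73 ± 0.41). Cox7a1, another striated muscle form, stood at 0.270 and 0.437 CPM for WT, 0.692 and 0.849 for Ch25hKO, and 0.684 and 0.701 for LXRdKO, and its knockout libraries were all above WT. It had the largest fold change of the members, 1.12 ± 0.35 (edgeR adjusted p = 0.0168) in Ch25hKO and 0.97 ± 0.36 (edgeR adjusted p = 0.0461) in LXRdKO, at counts of 12 and 19 in WT and 30 to 37 in the knockouts. Its calls were lost without Ch25hKO replicate 2 (0.97) or WT replicate 1 (0.81) in Ch25hKO, and without Ch25hKO replicate 1 (0.96), Ch25hKO replicate 2 (0.97), LXRdKO replicate 1 (0.98), LXRdKO replicate 2 (0.95) or WT replicate 1 (0.66) in LXRdKO. Cox7a2l, read under complex IV by its symbol, stood at 80.6 and 74.1 CPM for WT, 72.0 and 73.9 for Ch25hKO, and 71.2 and 71.5 for LXRdKO. It was not called in Ch25hKO (-0.09 ± 0.06) or LXRdKO (-0.12 ± 0.06). Cox6b1 stood at 52.8 and 49.0 CPM for WT, 54.6 and 57.5 for Ch25hKO, and 57.7 and 56.9 for LXRdKO, while Cox6b2, the testis form, had 5 to 11 counts per library and Cox8b, a muscle form, 3 to 7.

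Complex V had 5 of 17 members called higher and 1 lower in Ch25hKO, and 9 higher and 1 lower in LXRdKO. That was 29.4% and 5.88% of them in Ch25hKO, and 52.9% and 5.88% in LXRdKO. Among genes with a mean of at least 5 CPM the shares were 25.2% and 23%, and 23% and 16.7%. Atp5g1 (ENSMUSG00000006057.15, chromosome 11, 96068852 to 96075670), one of 3 genes for the same mature c subunit of the rotor ring, stood at 13.6 and 13.9 CPM for WT, 17.6 and 19.6 for Ch25hKO, and 18.6 and 16.8 for LXRdKO. The libraries of both knockouts lay above WT. It rose by 0.44 ± 0.08 (edgeR adjusted p = 0.000324) in Ch25hKO in all 16 fits, and by 0.37 ± 0.08 (edgeR adjusted p = 0.00195) in LXRdKO, which was lost without LXRdKO replicate 1 (0.29). Atp5g3, the most abundant of the 3 genes, stood at 82.4 and 80.4 CPM for WT, 87.2 and 91.6 for Ch25hKO, and 95.2 and 93.6 for LXRdKO. It rose by 0.13 ± 0.05 (edgeR adjusted p = 0.0484) in Ch25hKO and 0.21 ± 0.05 (edgeR adjusted p = 0.00424) in LXRdKO. These calls were lost without Ch25hKO replicate 1 (0.16), Ch25hKO replicate 2 (0.10), LXRdKO replicate 1 (0.13), LXRdKO replicate 2 (0.13) or WT replicate 2 (0.10) in Ch25hKO, and without LXRdKO replicate 1 (0.20) in LXRdKO. Atp5g2 was at 9.25 and 11.1 CPM for WT, 10.3 and 10.7 for Ch25hKO, and 11.8 and 12.8 for LXRdKO. It rose by 0.27 ± 0.10 (edgeR adjusted p = 0.043) in LXRdKO, lost without Ch25hKO replicate 1 (0.26), Ch25hKO replicate 2 (0.27), LXRdKO replicate 1 (0.32), LXRdKO replicate 2 (0.21) or WT replicate 1 (0.14), and was at 0.04 ± 0.10 (edgeR adjusted p = 0.763) in Ch25hKO. Of the counts of the 3 genes together, Atp5g1 took 13.0% ± 0.205 in WT, 15.7% ± 0.547 in Ch25hKO and 14.3% ± 0.828 in LXRdKO (SD, n = 2), and its share in each knockout library was above both WT libraries.

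Atp5o, the stalk subunit OSCP, rose by 0.20 ± 0.06 (edgeR adjusted p = 0.0116) and 0.27 ± 0.06 (edgeR adjusted p = 0.00198), and lost the calls without Ch25hKO replicate 2 (0.17) in Ch25hKO, and without LXRdKO replicate 1 (0.22) in LXRdKO. Its value is uncertain, since 15.8% of its exonic bases overlap Gm15976 on the other strand and 12.7% overlap Donson on the same strand. Atp5k, the membrane subunit e, rose by 0.19 ± 0.07 (edgeR adjusted p = 0.0274) and 0.23 ± 0.07 (edgeR adjusted p = 0.0139). It lost the calls without Ch25hKO replicate 1 (0.22), Ch25hKO replicate 2 (0.15) or WT replicate 2 (0.17) in Ch25hKO, and without LXRdKO replicate 1 (0.17) in LXRdKO. Atp5e, Atp5j, Atp5j2 and Atp5l, for other small subunits, were called higher in LXRdKO, by 0.15 to 0.25, and were at 0.10 to 0.12 in Ch25hKO, where they did not pass. Each was lost without at least 1 library, with values of 0.12 to 0.26.

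The abundant head subunits differed from the small ones. Atp5a1 (ENSMUSG00000025428.15, chromosome 18, 77773729 to 77782869) stood at 373 and 315 CPM for WT, 301 and 309 for Ch25hKO, and 295 and 292 for LXRdKO, so that WT replicate 1 was apart from the other 5 libraries. It fell by 0.17 ± 0.07 (edgeR adjusted p = 0.042) in Ch25hKO and by 0.23 ± 0.07 (edgeR adjusted p = 0.0113) in LXRdKO. The calls were lost without Ch25hKO replicate 1 (-0.16), Ch25hKO replicate 2 (-0.19), LXRdKO replicate 1 (-0.17), LXRdKO replicate 2 (-0.17) or WT replicate 1 (-0.05) in Ch25hKO, and without LXRdKO replicate 1 (-0.24), LXRdKO replicate 2 (-0.22) or WT replicate 1 (-0.10) in LXRdKO. Atp5b (ENSMUSG00000025393.12, chromosome 10, 128083273 to 128090391) stood at 814 and 649.8 CPM for WT, 759.8 and 756 for Ch25hKO, and 676 and 671 for LXRdKO. The WT libraries were its highest and its lowest, and it passed neither in Ch25hKO (0.05 ± 0.08 (edgeR adjusted p = 0.653)) nor in LXRdKO (-0.12 ± 0.08 (edgeR adjusted p = 0.278)). Among the genes that only carry the symbol, Atp5s stood at 0.585 and 1.27 CPM for WT, 1.5 and 1.56 for Ch25hKO, and 1.23 and 1.36 for LXRdKO. It rose by 0.73 ± 0.28 (edgeR adjusted p = 0.0486) in Ch25hKO, lost without Ch25hKO replicate 1 (0.75), Ch25hKO replicate 2 (0.70), LXRdKO replicate 1 (0.73), LXRdKO replicate 2 (0.73) or WT replicate 1 (0.27). Atp5sl stood at 2.93 and 3.13 CPM for WT, 3.37 and 3.39 for Ch25hKO, and 3.49 and 3.26 for LXRdKO and did not pass (0.16 ± 0.14 and 0.16 ± 0.14).

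**Figure D2:**
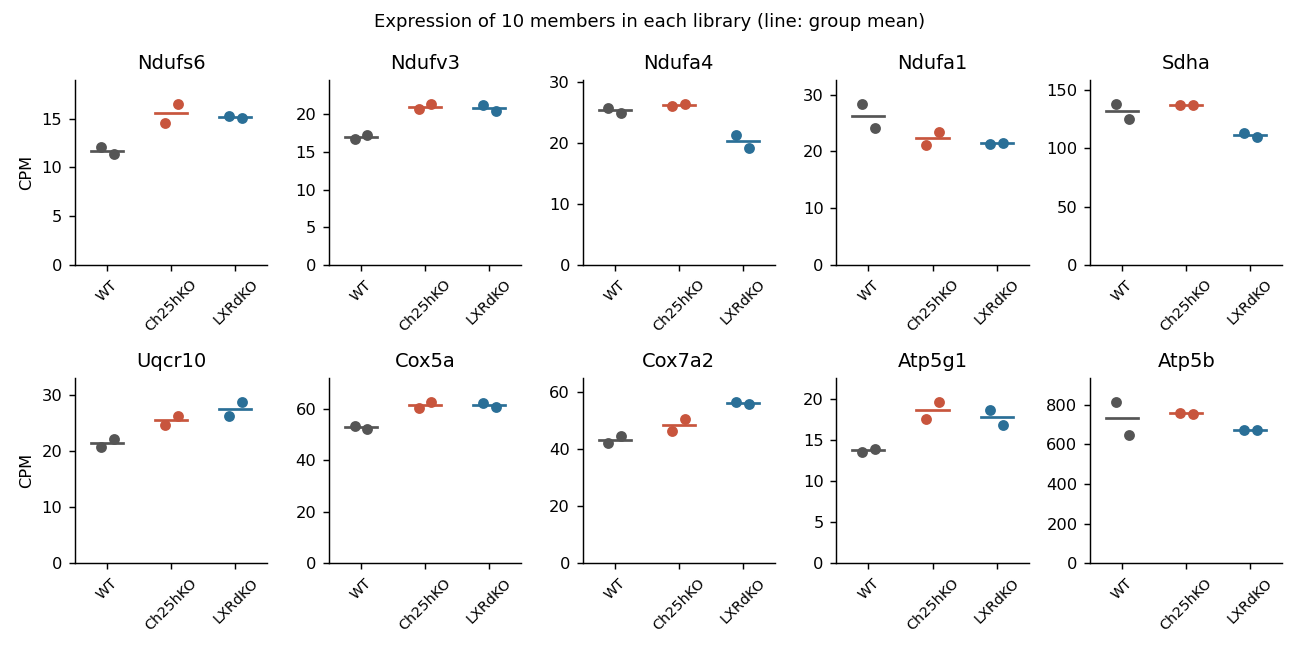
Expression in CPM (y axis, from 0) of 10 members in each of the 6 libraries (points), with the group mean as a line. Ndufa4 and Sdha are low in both LXRdKO libraries, Cox7a2 steps up from WT to Ch25hKO to LXRdKO, and the 2 WT libraries of Atp5b span 649.8 to 814 CPM.

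Summed over members, complex IV was the one of the 5 complexes whose libraries did not overlap between any 2 genotypes. The sums go by symbol, so that of complex IV holds neither Ndufa4 nor Cox4i1. The other complexes overlapped in some pairs and not in others. Complex I summed to 745 ± 31.8 CPM in WT, 761 ± 5.88 in Ch25hKO and 763 ± 6.98 in LXRdKO (SD, n = 2). Complex II summed to 305 ± 18.1, 321 ± 2.20 and 295 ± 4.46 CPM, and complex III to 236 ± 6.70, 245 ± 5.58 and 249.7 ± 3.75 CPM, in the same order. The libraries of complex I overlapped between WT and each knockout, and those of complex II between WT and LXRdKO. The lowest Ch25hKO library was just above the highest WT library for complexes II (319 against 318 CPM) and III (240.9 against 240.8 CPM), and both LXRdKO libraries were above WT for complex III, at a mean of 106% of WT. Between the knockouts, the libraries of complex II were apart, with Ch25hKO at 105% and LXRdKO at 96.6% of WT, and those of complexes I and III overlapped. Complex IV summed to 519 ± 7.52 CPM in WT, 552 ± 7.92 in Ch25hKO and 574 ± 5.84 in LXRdKO, with knockouts at 106% and 111% of WT, with no overlap between genotypes. Complex V was at 1687 ± 166, 1718 ± 17.4 and 1652 ± 17.3 CPM, with the WT libraries at 1805 and 1570, on either side of the knockouts. Its Ch25hKO libraries, at 1706 and 1730 CPM, lay above its LXRdKO libraries, at 1664 and 1639.

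The 2 most abundant genes held most of the spread of complex V. Without Atp5a1 and Atp5b, a sum taken after values were seen, complex V was at 611 ± 9.43 CPM in WT, 655 ± 14.9 in Ch25hKO and 685 ± 12.0 in LXRdKO (SD, n = 2), or 107% and 112% of WT, and the libraries of each knockout lay above those of WT. All 76 members together summed to 3492 ± 230.4 CPM in WT, 3596 ± 38.9 in Ch25hKO and 3533 ± 30.8 in LXRdKO. With 2 libraries against 2, an exact permutation test of a sum cannot give a two-sided p under 0.333, so none was run.

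**Figure D3:**
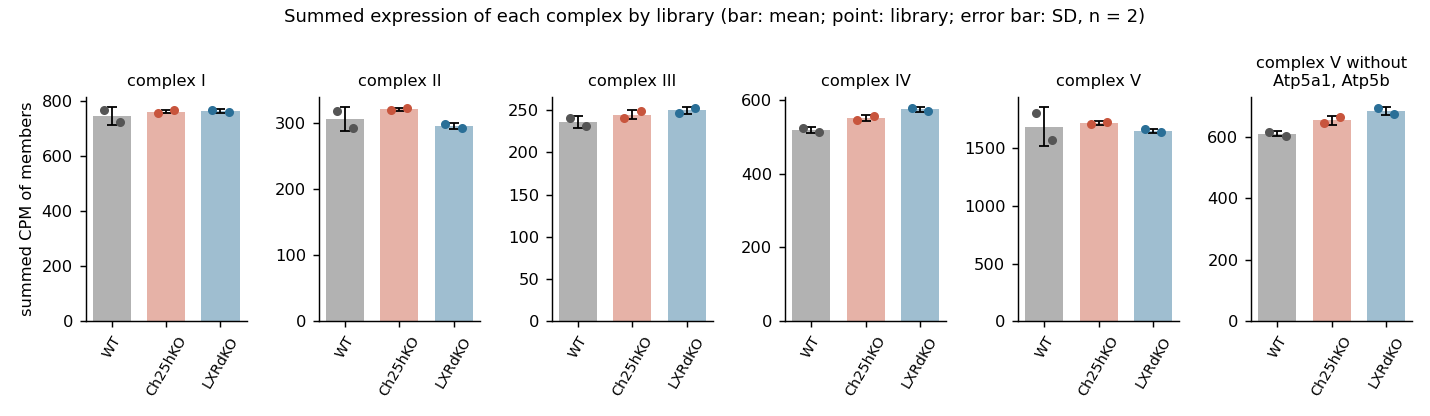
Summed CPM of the members of each complex (y axes from 0, a scale of its own for each panel), with bars for the mean, points for the 2 libraries and error bars for the SD. Complex IV and complex V without Atp5a1 and Atp5b are higher in both knockouts than in WT, while the 2 WT libraries of complex V span 1570 to 1805 CPM.

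Most members called higher had short transcripts. The median transcript length of members was 750 nt, and 49 of 76 (64.5%) were at or under 1000 nt, a division made after values were seen, against 6.87% of the 8001 other genes with at least 5 CPM and a known length. Of the 49 short members, 21 were called higher and 1 lower in Ch25hKO, with a median log2 fold change of 0.14, and 26 higher and 2 lower in LXRdKO, with a median of 0.20. Of the 27 longer members, 2 were called higher and 2 lower in Ch25hKO (median 0.04) and 3 higher and 3 lower in LXRdKO (median 0.03). The 3 members that fell in both knockouts comprise the short Ndufa1 and the longer Ndufa9 and Atp5a1.

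Other genes with short transcripts were also called higher more often than lower. Of the 550 other genes at or under 1000 nt, 32.2% were called higher and 12.9% lower in Ch25hKO (median 0.10), and 35.6% and 11.3% in LXRdKO (median 0.10). Of the 7451 longer ones, 24.7% and 24.0% were called in Ch25hKO (median 0.01), and 21.9% and 17.2% in LXRdKO (median 0.03). Across the 76 members, Spearman's rank correlation between length and log2 fold change was -0.44 in Ch25hKO and -0.51 in LXRdKO, and across the 8001 other genes it was -0.10 in both. The rank correlation with GC content was 0.23 and 0.43 across members and 0.06 and 0.11 across the others, and that with the mean CPM was -0.45 and -0.36 across members and -0.16 and 0.00 across the others. These are descriptions across genes, which share their libraries and are not independent replicates. Taking the longest principal transcript of each gene instead, an alternative added after the data were seen, left 43 short members with medians of 0.13 and 0.20 and rank correlations of -0.27 and -0.41. The part of transcript length in the calls of members was not tested.

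**Figure D4:**
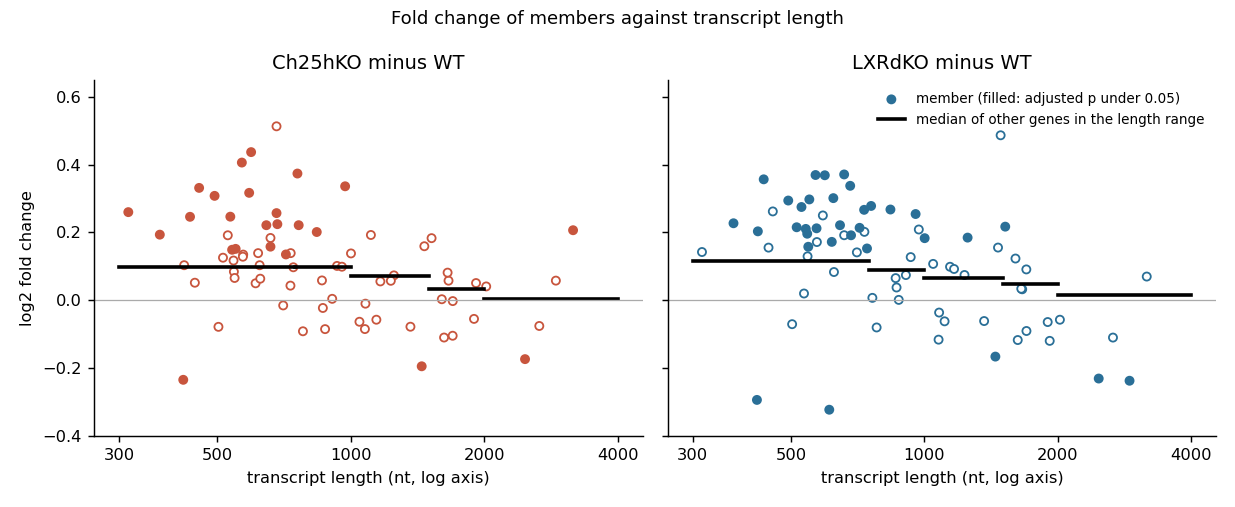
Log2 fold change against transcript length (log axis) of the members (points, filled for an adjusted p under 0.05), with the median of the other genes of at least 5 CPM in each length range as a bar. Points beyond the range of the y axis (Cox7a1 in both panels, Atp5s in Ch25hKO and Cox6a2 in LXRdKO) are not drawn. Members called higher are mostly at or under 1000 nt, where the medians of the other genes are also above 0.

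The cytosolic ribosomal protein genes, which are mostly short as well, had 28 of 76 called higher and 1 lower in Ch25hKO (median 0.10), and 28 higher and 9 lower in LXRdKO (median 0.11). Relative to the mean of the 6 libraries, the median log2 level of the oxidative phosphorylation genes was -0.06 and -0.10 in the WT libraries, 0.01 and 0.04 in Ch25hKO, and 0.08 and 0.05 in LXRdKO. Over the short members it was -0.10 and -0.13, 0.01 and 0.06, and 0.09 and 0.06. Over the short other genes it was -0.07 and -0.07, 0.02 and 0.04, and 0.05 and 0.04. Over the 27 longer members it was 0.04 and -0.06 in WT and between -0.01 and 0.00 in the knockouts. The 2 WT libraries were thus the lowest over all members, the short members and the short other genes, while over the longer members WT replicate 1 was the highest of the 6 and WT replicate 2 the lowest.

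Compared directly, the knockouts differed in few members. Against Ch25hKO, 5 of 76 members (6.58%) were called higher in LXRdKO, 4 (5.26%) lower and 67 did not pass, with a median log2 fold change of 0.02. Over all genes tested, 19.3% were called higher and 18.6% lower, with a median of -0.01, and 25.8% and 22.2% of those with at least 5 CPM. The libraries of 25 members (32.9%) were all higher in LXRdKO than in Ch25hKO and those of 14 (18.4%) all lower, against 34.7% and 36.6% of all genes tested. Ndufa4 and Sdha, given above, were the members lower by the most, at -0.37 ± 0.07 and -0.30 ± 0.06. Uqcrb fell by 0.23 ± 0.09 (edgeR adjusted p = 0.0458) and Ndufb3, an accessory subunit of complex I, by 0.21 ± 0.07 (edgeR adjusted p = 0.0299). The call of Uqcrb was lost without Ch25hKO replicate 1 (-0.27), Ch25hKO replicate 2 (-0.19), LXRdKO replicate 1 (-0.27) or LXRdKO replicate 2 (-0.18), and that of Ndufb3 without Ch25hKO replicate 1 (-0.21), Ch25hKO replicate 2 (-0.22), LXRdKO replicate 1 (-0.22) or LXRdKO replicate 2 (-0.20).

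Of the members higher in LXRdKO than in Ch25hKO, Cox7a2 rose by 0.21 ± 0.06 (edgeR adjusted p = 0.00685), a call lost without Ch25hKO replicate 1 (0.15) or LXRdKO replicate 1 (0.20). Ndufb7, an accessory subunit of the membrane arm, stood at 14.8 and 13.9 CPM for WT, 15.7 and 15.1 for Ch25hKO, and 18.0 and 17.4 for LXRdKO, and rose by 0.20 ± 0.07 (edgeR adjusted p = 0.0432) against Ch25hKO and by 0.30 ± 0.07 (edgeR adjusted p = 0.0048) against WT. Ndufv2, a core subunit of the NADH-binding module, stood at 20.4 and 19.1 CPM for WT, 18.4 and 18.3 for Ch25hKO, and 20.7 and 21.4 for LXRdKO, and rose by 0.20 ± 0.07 (edgeR adjusted p = 0.0332). Ndufb9, another accessory subunit, stood at 46.1 and 42.5 CPM for WT, 43.9 and 43.8 for Ch25hKO, and 49.8 and 47.9 for LXRdKO, and rose by 0.16 ± 0.06 (edgeR adjusted p = 0.0402), with 19.5% of its exonic bases shared with Gm49356 on the same strand. Cox8a rose by 0.15 ± 0.05 (edgeR adjusted p = 0.0428). The calls were lost without Ch25hKO replicate 1 (0.22), Ch25hKO replicate 2 (0.17), LXRdKO replicate 1 (0.17) or LXRdKO replicate 2 (0.22) for Ndufb7 and, against WT, without LXRdKO replicate 1 (0.28). They were lost without Ch25hKO replicate 1 (0.20), Ch25hKO replicate 2 (0.19), LXRdKO replicate 1 (0.22) or LXRdKO replicate 2 (0.17) for Ndufv2, without Ch25hKO replicate 1 (0.16), Ch25hKO replicate 2 (0.16), LXRdKO replicate 1 (0.13) or LXRdKO replicate 2 (0.18) for Ndufb9, and without Ch25hKO replicate 1 (0.16), Ch25hKO replicate 2 (0.13), LXRdKO replicate 1 (0.13) or LXRdKO replicate 2 (0.16) for Cox8a. No gene of complex V was called between the knockouts by edgeR, DESeq2 or limma-voom, while 3 were higher and 1 lower at an unadjusted edgeR p under 0.05.

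Set side by side against the same WT libraries, 15 members were called higher in both knockouts, 3 lower in both (Ndufa1, Ndufa9 and Atp5a1), 8 higher in Ch25hKO alone and 14 higher in LXRdKO alone. Over all genes tested, 7.01% were called higher in both, 7.2% lower in both, 11.4% higher in Ch25hKO alone and 7.1% higher in LXRdKO alone, against 19.7%, 3.95%, 10.5% and 18.4% of members. Among genes with at least 5 CPM the shares were 10%, 7.96%, 13.3% and 9.56%. Only for Uqcrb and Ndufb3, called higher in Ch25hKO, and Ndufb7, called higher in LXRdKO, did the direct comparison of the knockouts pass as well, and for the other 19 it did not. Ndufa4 and Sdha, lower in LXRdKO alone as were 6.9% of all genes tested and 6.84% of those with at least 5 CPM, did pass it. Since these comparisons share control libraries, the joint counts are a description.

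Other genes of the pathway, from lists drawn up for this comparison, moved in both directions. For the counts that follow, 19.8% of all genes tested were called higher and 19.5% lower in Ch25hKO, and 16.4% and 15.5% in LXRdKO. Of 10 tested assembly factors of complex I, 3 rose and 1 fell in each knockout. In LXRdKO 1 rose and 0 fell without LXRdKO replicate 1 or WT replicate 1 and by DESeq2, 1 and 1 without either Ch25hKO library, and 2 and 0 without LXRdKO replicate 2, and Ndufaf3 alone kept its call without each library in turn. Ndufaf3 rose by 0.53 ± 0.09 (edgeR adjusted p = 0.000168) in Ch25hKO and 0.43 ± 0.09 (edgeR adjusted p = 0.00159) in LXRdKO, and Ndufaf4 by 0.78 ± 0.13 (edgeR adjusted p = 0.000124) in Ch25hKO. Of 19 assembly factors of complexes II to V, 3 rose and 2 fell in Ch25hKO, and 1 rose and 0 fell in LXRdKO. In LXRdKO 4 and 1 passed an unadjusted edgeR p under 0.05, and DESeq2 and limma-voom each gave 1 and 0 at an adjusted p under 0.05. Without WT replicate 2 the counts were 5 and 3 in Ch25hKO and 3 and 0 in LXRdKO. Sco1, a copper chaperone of complex IV, stood at 65.5 and 62.3 CPM for WT, 40.0 and 42.5 for Ch25hKO, and 58.2 and 63.7 for LXRdKO, and fell by 0.63 ± 0.06 (edgeR adjusted p = 2.51e-07) in Ch25hKO. Surf1, another complex IV assembly factor, was the 1 that rose in LXRdKO, by 0.41 ± 0.08 (edgeR adjusted p = 0.000432).

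Of the 18 genes of the tricarboxylic acid cycle and its entry by pyruvate, 5 rose and 0 fell in Ch25hKO, and 0 rose and 4 fell in LXRdKO. Among genes with a mean of at least 5 CPM, 25.2% were called higher and 23% lower in Ch25hKO, and 23% and 16.7% in LXRdKO. Over all genes tested the shares were 19.8% and 19.5%, and 16.4% and 15.5%. At an unadjusted edgeR p under 0.05 the counts were 8 and 0, and 0 and 4. At an adjusted p under 0.05 DESeq2 gave 4 and 0, and 0 and 2, and limma-voom 5 and 0, and 0 and 3. None of the 5 calls in Ch25hKO held without each library in turn, and 1 gene was called higher without Ch25hKO replicate 1. In LXRdKO 2 were called lower without LXRdKO replicate 1 or 2, and Dld and Idh3b kept the call without each library. Dld, the dehydrogenase subunit shared by the pyruvate and oxoglutarate complexes, stood at 138 and 134 CPM for WT, 157 and 156 for Ch25hKO, and 115 and 115 for LXRdKO. It rose by 0.21 ± 0.05 (edgeR adjusted p = 0.0027) in Ch25hKO, a call lost without Ch25hKO replicate 1 (0.20), and fell by 0.24 ± 0.05 (edgeR adjusted p = 0.00127) in LXRdKO. Idh3b, a subunit of the NAD-dependent isocitrate dehydrogenase, stood at 70.3 and 67.6 CPM for WT, 69.9 and 70.4 for Ch25hKO, and 56.3 and 56.1 for LXRdKO, and fell by 0.29 ± 0.05 (edgeR adjusted p = 0.000299) in LXRdKO. Between the knockouts, 5 of the 18 were lower in LXRdKO and 0 higher, Dld by 0.45 ± 0.05 (edgeR adjusted p = 1.12e-06). Of all genes tested, 18.6% were called lower there and 19.3% higher.

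Of 12 tested regulators of mitochondrial biogenesis, 7 rose and 1 fell in Ch25hKO, and 4 rose and 0 fell in LXRdKO. Over all genes tested, 19.8% and 19.5% were called higher and lower in Ch25hKO, and 16.4% and 15.5% in LXRdKO. In Ch25hKO 3 were called higher and 0 lower without Ch25hKO replicate 1, 5 and 0 without Ch25hKO replicate 2 and by DESeq2, 6 and 0 without WT replicate 1, and 6 and 2 without WT replicate 2. Polrmt, Pprc1 and Tfb1m kept the call without each library there, and the 4 genes that rose in LXRdKO did so as well. In LXRdKO, 5 were higher and 0 lower at an unadjusted edgeR p under 0.05. DESeq2 and limma-voom each gave 4 and 0 there at an adjusted p under 0.05. Pprc1, a coactivator of the PGC-1 family, stood at 12.9 and 14.1 CPM for WT, 25.1 and 24.0 for Ch25hKO, and 19.5 and 17.4 for LXRdKO, and rose by 0.86 ± 0.08 (edgeR adjusted p = 1.15e-07) and 0.45 ± 0.08 (edgeR adjusted p = 0.00029). Tfb1m, a mitochondrial ribosomal RNA methyltransferase, stood at 1.08 and 0.990 CPM for WT, 2.95 and 3.10 for Ch25hKO, and 2.44 and 2.62 for LXRdKO, and rose by 1.54 ± 0.18 (edgeR adjusted p = 2.87e-06) and 1.29 ± 0.19 (edgeR adjusted p = 4.14e-05). Gabpa, an ETS-family factor also called NRF2, rose by 0.27 ± 0.05 (edgeR adjusted p = 0.000572) in LXRdKO, with a value of 0.10 ± 0.05 (edgeR adjusted p = 0.144) in Ch25hKO. Of the exonic bases of Atp5j, 12.7% overlap Gabpa on the other strand. Of 8 tested subunit genes and electron carriers that the symbol rule misses, 2 rose and 3 fell in Ch25hKO, and 2 rose and 1 fell in LXRdKO. Each of these calls was lost without at least 1 library. In Ch25hKO 0 were higher and 1 lower without either of its own libraries and by DESeq2, 0 and 2 without WT replicate 2, and 3 and 1 without WT replicate 1. In LXRdKO 0 were called in either direction without LXRdKO replicate 1 and by DESeq2, 1 and 0 without LXRdKO replicate 2 or WT replicate 2, and 4 and 1 without WT replicate 1, while 3 and 1 passed an unadjusted edgeR p under 0.05. Among them Cox4i1, the main subunit IV of complex IV, did not pass (-0.02 ± 0.05 (edgeR adjusted p = 0.804) and 0.08 ± 0.05 (edgeR adjusted p = 0.286)).

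Ranked by Pearson's r with the mean pattern of the members over the 6 libraries, among 5075 genes with a mean of at least 20 CPM, the nearest were Ctdsp1 (r = 0.998), 2010109K11Rik (r = 0.995), Ap3m1 (r = 0.995), Cdc42se2 (r = 0.994) and Rcsd1 (r = 0.994). Ctdsp1 stood at 32.5 and 32.3 CPM for WT, 38 and 39.2 for Ch25hKO, and 39.2 and 38.6 for LXRdKO. With 6 libraries in 3 genotypes, such values are a description of the ranking alone.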

How the data were processed

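RNA sequencing libraries were made from 100 ng of RNA with amplification to cDNA by the Ovation RNA-seq System V2. Sequencing was on a HiSeq 2500, per the labels' protocols. Amplified reads are not independent molecules. The authors deposited 1 table of raw counts per gene symbol, with no normalization. Per the submitters' processing notes, CASAVA, STAR 2.3.0, HTSeq and mm10 were used. No source used here states the annotation, the counting mode or the use of strand, so reads shared with overlapping genes or with processed pseudogenes of subunit genes may be counted either way or left out. Sample titles gave the genotype and the replicate number.

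The fit used edgeR 4.0.16 in R 4.3.3: filterByExpr at its defaults left 12923 genes, libraries were scaled by TMM, and a single model with 1 mean for each genotype took in the 6 libraries, with robust dispersions (3 residual degrees of freedom, a median of 14.4 prior ones). CPM uses TMM-scaled library sizes. Standard errors are the log2 fold change divided by the square root of F. The script was tested on simulated data. Coordinates, transcript lengths and exon overlaps come from GENCODE M21 on GRCm38, the same assembly as mm10, and each length is that of the shortest principal transcript matched to RefSeq. That rule replaced the longest transcript after fold changes had been seen, since the longest gave untypical lengths for Ndufb2 and Atp5g1. Promoters came from a RefSeq table. 1 member is counted but not reported by itself here. Members and lists were chosen with earlier results of these data known. By rule, per-library values are given for called members of largest change, the lowest p per complex, 10 core subunits, isoform sets and Atp5s and Atp5sl, and up to 3 genes of each other list by lowest p are named. Alternatives were RLE, upper-quartile and ribosome-free scaling, DESeq2 1.42.0, limma-voom (limma 3.58.1), other count filters, the replicate number as a block, fits restricted to the 4 libraries of a comparison, each library left out, and other member sets. Leaving out a library leaves 1 in its group, whose spread was then taken from the other groups.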

Additional observations from a re-analysis of the deposited data

How the results depend on the processing

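All medians kept their sign in every alternative run, and no called member changed sign. DESeq2's Wald test called 8 members higher in Ch25hKO, 15 higher in LXRdKO, and 1 higher and 2 lower between the knockouts. Over all genes it called 1747, 1506, and 2051 higher and 1719 lower in the same order. Fitting only the libraries compared gave 17 higher in LXRdKO, and 10 higher and 7 lower between the knockouts. Requiring 5 CPM or more in 2 or more libraries left 71 members, with medians of 0.079 in Ch25hKO and 0.11 in LXRdKO. Leaving out each library in turn, members higher ranged from 7 to 17 in Ch25hKO, 6 to 27 in LXRdKO and 0 to 10 between the knockouts. Members lower ranged from 0 to 5, 1 to 10 and 2 to 7, and medians from 0.071 to 0.13, 0.11 to 0.17 and 0.01 to 0.04. The cause of these shifts was not tested, beyond fewer libraries or genes in the fits that leave some out. For members called higher against WT, the lowest count in each knockout was a smaller share than that of all genes in the same fit. Dropping the minimum of the summed count changed nothing, since no further symbol passed the filter.

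The samples share only a replicate number. Deviations of same-numbered libraries correlated at -0.11 between WT and Ch25hKO, -0.01 between WT and LXRdKO and 0.02 between the knockouts over all tested genes, and at -0.31, -0.06 and 0.11 over those with at least 5 CPM. With the replicate block, 18 members were higher and 2 lower in Ch25hKO, 25 and 4 in LXRdKO, and 3 and 3 between the knockouts. With the WT numbers crossed, a pairing added after the data were seen, the counts were 25 and 3, 29 and 5, and 6 and 4. Calls that held in all 16 alternative fits were 4 of 26 in Ch25hKO, 7 of 34 in LXRdKO and 2 of 9 between the knockouts. With 2 libraries per group, a missed call does not show that a member was equal.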

Other observations

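AA467197 (also known as NMES1), a paralog of Ndufa4, was looked at after the fall of Ndufa4 in LXRdKO had been seen. It stood at 537 and 539 CPM for WT, 450.5 and 492 for Ch25hKO, and 545 and 587 for LXRdKO, far above the 19.2 to 26.4 CPM of Ndufa4. Its log2 fold change was -0.19 ± 0.06 in Ch25hKO (edgeR adjusted p = 0.0145), a call lost without Ch25hKO replicate 1 (-0.14). It was 0.07 ± 0.06 in LXRdKO (edgeR adjusted p = 0.365) and 0.26 ± 0.06 between the knockouts (edgeR adjusted p = 0.00141), the last lost without Ch25hKO replicate 1 (0.20) or LXRdKO replicate 2 (0.21).

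Slc25a5, the ADP/ATP carrier that exchanges the product of complex V across the inner membrane, stood at 69.0 and 68.2 CPM for WT, 80.6 and 82.1 for Ch25hKO, and 86.0 and 84.7 for LXRdKO. It rose by 0.25 ± 0.05 (edgeR adjusted p = 0.000908) in Ch25hKO and by 0.31 ± 0.05 (edgeR adjusted p = 0.000122) in LXRdKO, and kept both calls without each library in turn. Ucp2, an uncoupling-protein family carrier, fell by 0.17 ± 0.05 (edgeR adjusted p = 0.0123) in Ch25hKO, a call lost without Ch25hKO replicate 1 (-0.18) or 2 (-0.17), and was at 0.08 ± 0.05 (edgeR adjusted p = 0.267) in LXRdKO. Of the 5 genes of the uncoupling and itaconate list, 2 rose and 1 fell in Ch25hKO, and 2 rose and 0 fell in LXRdKO. Over all genes tested, 19.8% and 19.5% were called higher and lower in Ch25hKO, and 16.4% and 15.5% in LXRdKO. Slc25a4, another ADP/ATP carrier, lost its call higher in Ch25hKO without each library but WT replicate 1 (0.11 to 0.15), and Irg1, the enzyme that makes itaconate, lost its call higher in LXRdKO without each library but WT replicate 2 (0.14 to 0.22).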
